A study of Mus musculus with 4 samples.

Results

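The 9 genes described here code for transcription factors that specify skeletal muscle or keep it running: *Myod1*, *Myf5*, *Myf6*, *Myog*, *Mef2a*, *Mef2c*, *Mef2d*, *Pax7* and *Six4*. They were chosen by name, out of 21911 protein-coding genes of GENCODE release M21 on mm10, and the rule that names them uses no measured value, although earlier results of these data were known when it was set. For each, H3S10ph peaks were collected on the gene body, from the annotated start to the end, and in flanks of 20 kb on each side. H3S10ph is histone 3 phosphorylated at serine 10. It was mapped by ChIP-seq in gastrocnemius, a calf muscle, of 5 month old male C57BL/6 mice, with 2 samples per condition and the muscles of 6 mice pooled in each sample. Stimulated muscles were collected immediately after 50 eccentric contractions, each a tetanus of 600 ms at 100 Hz, with 30 s between them. Unstimulated muscles were those of the contralateral leg of the stimulated mice, so that both conditions had the same anaesthesia with xylazine and Zoletil and no genetic change. For stimulation, the methods describe a skin incision, wires placed beside the sciatic nerve and a cut common peroneal nerve. They describe no such surgery of the other leg, so surgery and contractions cannot be told apart here. The authors called broad peaks in each sample separately, and a sample is represented here by its list of peaks.

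Muscle identity is set by a small network of factors. *Myod1* and *Myf5* code for the basic helix-loop-helix factors that commit cells to the muscle lineage, *Myog* for the factor that drives their differentiation, and *Myf6* for the related factor that is abundant in adult fibres. These proteins bind E boxes together with E proteins. The Mef2 factors bind A/T-rich sites in genes of the contractile apparatus and of metabolism, and class IIa histone deacetylases hold them back until muscle activity releases them. *Pax7* marks satellite cells, the stem cells that lie beside the fibres, and *Six4* codes for a homeodomain factor that works with Eya coactivators. H3S10ph is known as a mark of mitotic chromosomes and, at lower levels, of genes switched on by MAP kinase signalling.

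The lists differed in length. There were 9094 and 32740 peaks in the lists of unstimulated replicates 1 and 2, and 10901 and 40683 in those of stimulated replicates 1 and 2. The lists hold no counts or coverage. By the methods the replicates were brought to a common read number before the peaks were called, but the number behind each list is unknown. Where no peak is listed on a gene, H3S10ph was not called there, which is not a measure of its absence. Every list ends at a −log10 p of about 2, its lowest values lying between 2.00 and 2.04. The cutoff named in the methods corresponds to a −log10 p of 3, which 12.9%, 2.93%, 17.7% and 3.22% of the peaks reach in unstimulated replicates 1 and 2 and stimulated replicates 1 and 2. Of the 50 peaks described here 3 reach this value. The methods do not say how the cutoff relates to the single value listed for a whole broad peak. A listed value below 3 therefore does not show that a peak missed the cutoff. The list of unstimulated replicate 1 stands apart from the rest, with 522 peaks on chromosome X against 19, 19 and 16. None of the 9 genes lies on that chromosome. Muscle tissue holds fibres, satellite cells and other cells, and the share of each in the signal cannot be told apart in these lists.

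Over the 4 samples, 50 peaks lay within the windows of the 9 genes, 31 of them on a gene body. A single region was shared between lists: the other 48 of 49 merged regions, or 98.0%, were found in 1 list only, as were 97.8% of the 91019 regions of the whole series. Of the 50 peaks 48 had a q-value of 1, as had 96.0% and 99.0% of all peaks in the unstimulated lists and 88.7% and 98.9% in the stimulated ones. The other 2, at *Myf6* and upstream of *Six4* in stimulated replicate 1, had a −log10 q of 0.00948 and 0.0476. On this scale such small values stand for q-values only a little below 1, so none of the 50 peaks had a low q-value. The 3 with a −log10 p of at least 3 came from stimulated replicate 1 and lay in *Myf6*, upstream of *Six4* and within *Mef2c*. The middle 300 bases of these 3 peaks and of the shared stretch downstream of *Myod1* are given here. The former have the highest −log10 p and the latter is the only recurrent location at these genes. They were read from the RefSeq sequence of GRCm38.p6, the same build as mm10, each along the strand of its gene. Capitals mark E boxes of the form CANNTG and, in *Mef2c*, a match to the MEF2 site.
*Myf6*, chr10:107493634-107493933, minus strand: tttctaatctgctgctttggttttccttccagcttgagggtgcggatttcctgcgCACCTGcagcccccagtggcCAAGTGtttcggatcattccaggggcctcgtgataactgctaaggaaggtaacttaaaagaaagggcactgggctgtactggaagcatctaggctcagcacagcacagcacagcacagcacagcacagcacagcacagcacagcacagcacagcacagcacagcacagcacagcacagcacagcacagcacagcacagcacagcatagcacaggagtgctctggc
Upstream of *Six4*, chr12:73114870-73115169, minus strand: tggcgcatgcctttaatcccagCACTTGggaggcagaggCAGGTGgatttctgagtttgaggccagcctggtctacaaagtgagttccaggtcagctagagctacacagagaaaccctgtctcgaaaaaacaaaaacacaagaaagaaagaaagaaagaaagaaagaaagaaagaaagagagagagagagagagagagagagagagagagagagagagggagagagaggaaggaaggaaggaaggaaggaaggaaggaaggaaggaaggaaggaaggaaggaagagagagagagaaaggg
*Mef2c*, chr13:83579004-83579303, plus strand: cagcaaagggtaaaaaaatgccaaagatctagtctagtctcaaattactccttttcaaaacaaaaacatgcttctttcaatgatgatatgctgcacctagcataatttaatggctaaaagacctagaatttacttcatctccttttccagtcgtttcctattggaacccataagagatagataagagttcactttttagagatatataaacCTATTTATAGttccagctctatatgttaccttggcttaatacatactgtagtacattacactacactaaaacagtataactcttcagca
Downstream of *Myod1*, chr7:46391137-46391436, plus strand: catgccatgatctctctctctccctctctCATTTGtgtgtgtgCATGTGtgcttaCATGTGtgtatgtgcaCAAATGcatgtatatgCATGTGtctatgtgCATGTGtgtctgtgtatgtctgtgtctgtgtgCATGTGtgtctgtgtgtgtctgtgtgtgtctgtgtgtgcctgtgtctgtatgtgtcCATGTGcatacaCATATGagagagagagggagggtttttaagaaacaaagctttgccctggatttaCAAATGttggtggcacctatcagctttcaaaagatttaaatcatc

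Repeats made up a large part of 3 of these stretches. In *Myf6* an unbroken tandem repeat of a 5-base unit ran for 110 bases, and upstream of *Six4* one of a 4-base unit ran for 58 bases. Of all autosomal peaks in the list of stimulated replicate 1, 11.8% held a tandem repeat of at least 30 bases in their middle 300 bases, the highest share of the 4 lists, against 3.21% and 5.28% in the unstimulated lists and 6.52% in stimulated replicate 2. Repeat-masked bases made up 100% of the *Six4* stretch, 75.3% of that downstream of *Myod1* and 43.0% of that in *Myf6*, but 8.67% of that in *Mef2c*. The median over the peaks of a list was between 17.7% and 23.0%. Over the 50 peaks at the 9 genes the median was 11.2%, with a tandem repeat of at least 30 bases in 5 of them. The part of these repeats in the peaks was not tested. E boxes were found in the *Myf6*, *Six4* and *Myod1* stretches, searched on both strands, but a CANNTG was also found in the middle 300 bases of 78.0% to 80.7% of the autosomal peaks of the 4 lists. The form CAGCTG is a case of it. CAGCTG, the AP-1 site TGANTCA, the cAMP response element TGACGTCA and the CArG box had no match in any of the 4 stretches. Over the peaks of the 4 lists they had matches in 8.37% to 13.4%, 8.57% to 9.91%, 0.117% to 0.209% and 1.67% to 1.81%. The MEF2 site in *Mef2c* was searched in both orientations, and 4.89% of the peaks of stimulated replicate 1 held one. That was the lowest share of the 4 lists, against 9.36% and 5.55% in the unstimulated lists and 5.48% in stimulated replicate 2.

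*Myf6* had the largest covered share of the 9 genes, in a single sample. In bases it was not the largest, with 800 bp covered against 3194 bp on *Mef2c* in the same sample. Its body, chr10:107492853-107494737 on the minus strand, is 1.89 kb long, with 3 exons. A peak called in stimulated replicate 1, from 107493384 to 107494183, covered 42.4% of *Myf6*, including all 91 bases of the middle exon and 89 bases of the last one. Its fold enrichment of 2.73 over the background gave rank 285 of 10901 peaks, or 2.61% from the top, and its −log10 p was 3.74. The covered share was 0 in both unstimulated lists and in stimulated replicate 2, so the mean of 21.2 ± 30.0% (SD, n = 2) after contractions rests on 1 sample. The nearest peaks of stimulated replicate 2 were 4572 bp upstream and 11102 bp downstream of *Myf6*, at ranks 27841 and 31585 of 40683.

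*Myf5*, *Myod1* and *Myog* had no peak on the gene body in any of the 4 lists. *Myf5* lies 6718 bp from *Myf6*, so the 3 peaks just described are also the 3 peaks in the flanks of *Myf5*. In the flanks of *Myod1*, at chr7:46376474-46379099, unstimulated replicate 2 had a peak from 46390892 to 46391832 and stimulated replicate 2 one from 46390920 to 46391652. These overlapped and formed the shared region shown above, 14.4 kb downstream of the start of *Myod1* and outside any other annotated gene. Their ranks, 19891 of 32740 and 31585 of 40683, were in the lower part of each list. In the flanks of *Myog* 4 peaks were found, 1 in unstimulated replicate 2, 1 in stimulated replicate 1 and 2 in stimulated replicate 2. All 4 were downstream of *Myog* and on the neighbouring gene *Ppfia4*, and none overlapped another.

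*Six4*, at chr12:73099609-73113456, had a peak of 299 bp in its first coding exon in unstimulated replicate 2, which covered 2.16% of the gene. This peak had a fold enrichment of 2.02 and rank 32107 of 32740, near the foot of the list, and the other 3 lists had no peak on *Six4*. In stimulated replicate 1 a peak of 320 bp ended 1404 bp upstream of the start, with a fold enrichment of 2.60 and rank 643 of 10901. Unstimulated replicate 2 had 2 further flank peaks, of which the one 16432 bp upstream was on *Mnat1*.

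**Figure D1:**
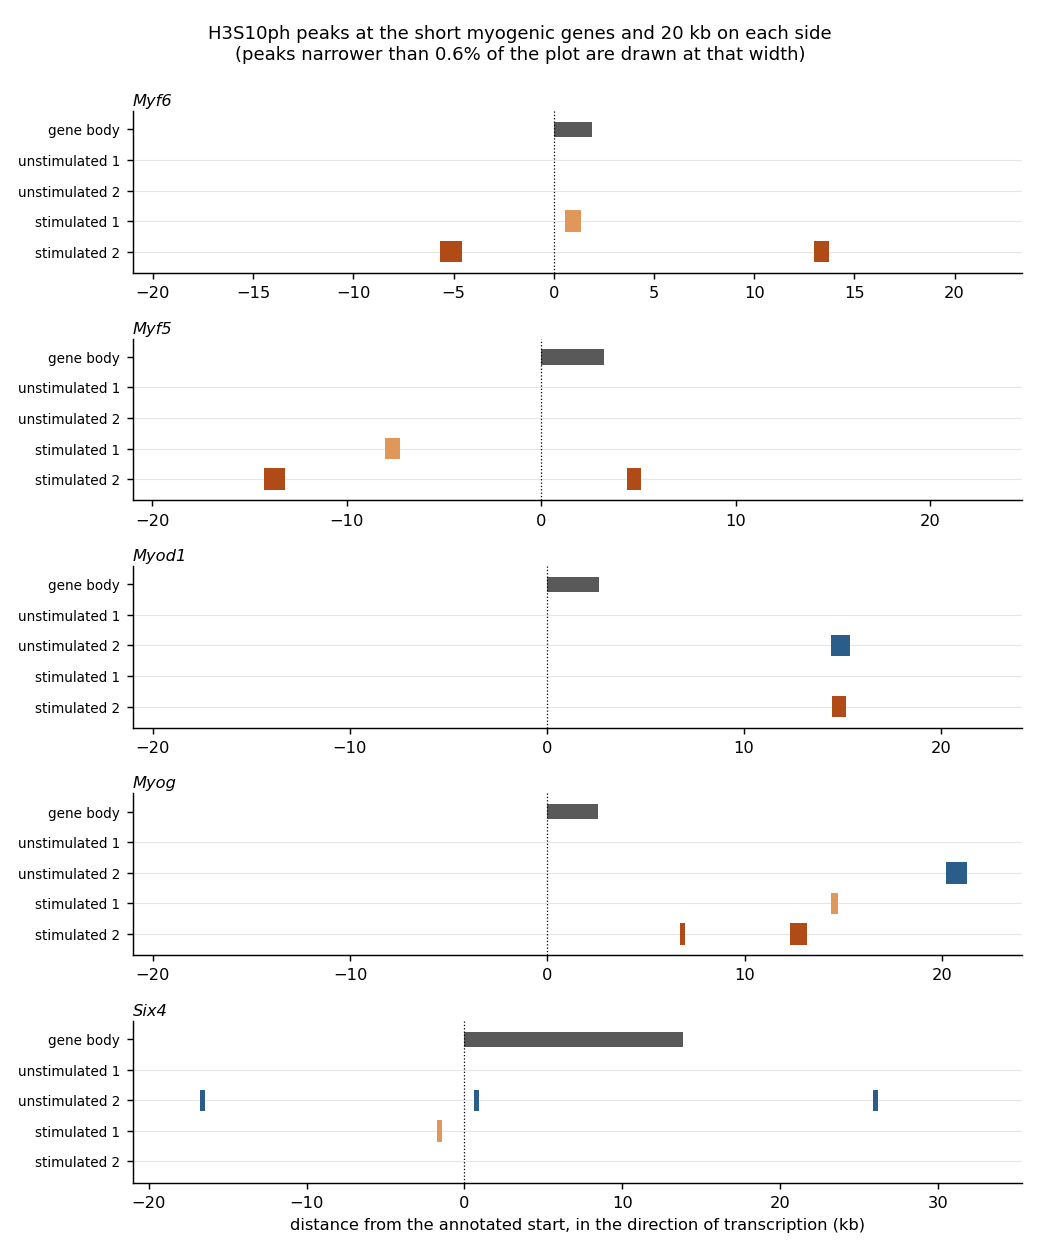
Peaks at *Myf6*, *Myf5*, *Myod1*, *Myog* and *Six4* in each of the 4 samples, with the distance from the annotated start in kb on the x axis, the gene body as a grey bar and each peak as a coloured bar, narrow ones at a minimum width. A body peak is present at *Myf6* in stimulated replicate 1 and at *Six4* in unstimulated replicate 2, and nowhere else among these 5 genes, and the peaks at *Myf6* and *Myf5* are the same 3 peaks seen from either gene.

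The Mef2 genes carried most of the peaks. *Mef2a*, which is 142 kb long, at chr7:67231163-67372858, had a body peak in all 4 lists. The covered share of *Mef2a* was 2.095% and 0.327% in the unstimulated lists and 0.866% and 1.07% in the stimulated ones. Both stimulated values lay between the unstimulated values. With peaks of −log10 p 2.5 or more, both unstimulated values lay above both stimulated ones, with a difference of −1.13 percentage points and an exact permutation p of 0.333, the smallest possible. With all peaks, 1.45% of all protein-coding genes and 3.74% of those of 100 kb or more had this order. Their share at the threshold of 2.5 is not given here. Within *Mef2a*, 4 peaks of 3 lists fell within 5.33 kb of each other in introns, from 67339587 to 67344912. These were 2 peaks of unstimulated replicate 1 and 1 peak each of unstimulated replicate 2 and stimulated replicate 2. They did not overlap, the nearest being 222 bp apart, and this cluster was singled out after its values were seen. Unstimulated replicate 1 had its highest ranks at these genes here, at 1105 and 1231 of 9094 peaks. In stimulated replicate 1 the 2 peaks on *Mef2a* were elsewhere, from 104.8 to 111.4 kb downstream of the start, where the gene *Lysmd4* overlaps it. Stimulated replicate 2 had the only flank peak of *Mef2a*, 7714 bp downstream, at rank 31467 of 40683.

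*Mef2c*, at chr13:83504034-83667080, is 163 kb long and also had a body peak in all 4 lists. Its peaks numbered 2 and 4 in the unstimulated lists and 4 and 5 in the stimulated lists, and 14 of the 15 were intronic. The covered share of *Mef2c* was 0.291% and 0.712% in unstimulated muscles, a mean of 0.501 ± 0.298% (SD, n = 2). It was 1.96% and 1.29% in stimulated muscles, a mean of 1.62 ± 0.474% (SD, n = 2). Both stimulated values were above both unstimulated values, which held for *Mef2c* alone among the 9 genes. Of all protein-coding genes 4.97% had this order, and of the 2489 genes of 100 kb or more, 11.8% had it. By exact permutation, two-sided, p was 0.333, the smallest that 2 samples against 2 allow, so no difference between the conditions can pass 0.05 in this test. With lists of equal length, or with peaks of a −log10 p of at least 2.5 or 3 only, the samples of the conditions overlapped, and the exact permutation p was 1. In its flanks *Mef2c* had 2 peaks in unstimulated replicate 2, both at rank 24254 of 32740, and 1 in stimulated replicate 2, at rank 31585 of 40683. No peak on *Mef2c* overlapped one from another list. The nearest were 411 bp apart, a peak of unstimulated replicate 1 and the strongest peak on *Mef2c* in stimulated replicate 1, which spanned 1041 bp at rank 1871 of 10901 with a −log10 p of 3.02.

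*Mef2d*, at chr3:88142372-88172086 and 29.7 kb long, was called in stimulated replicate 2 only. A peak of 955 bp and one of 1300 bp, which overlaps a coding exon, covered 7.59% of *Mef2d* in that sample, at ranks 7598 and 12572 of 40683. The other 3 lists had no peak on *Mef2d* or in its flanks, whereas stimulated replicate 2 had 3 in the flanks, 1 of them on the antisense gene *1700113A16Rik*. None of the 5 peaks reached a −log10 p of 2.5.

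*Pax7*, the satellite-cell gene at chr4:139737062-139833528, is 96.5 kb long. It had an intronic peak over 0.345% of the gene in unstimulated replicate 2, and a peak in the last exon over 0.923% of it in stimulated replicate 2. Their ranks were 7401 of 32740 and 31585 of 40683. The latter fold enrichment of 2.01 is the commonest of its list, shared by 8179 peaks. The only flank peak of *Pax7*, 18322 bp downstream, was in unstimulated replicate 2 at rank 6890. Neither of the lists of replicate 1 had a peak on *Pax7* or in its flanks.

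**Figure D2:**
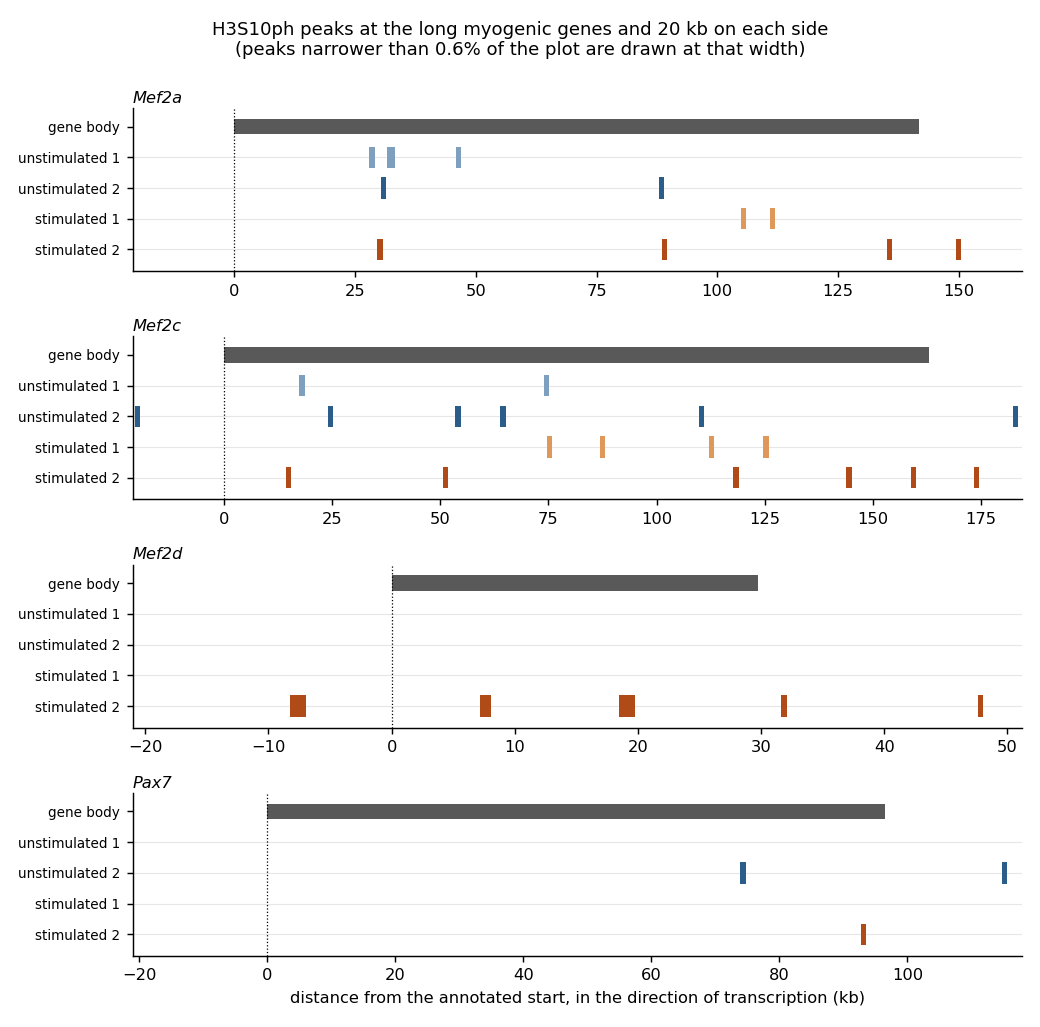
Peaks at *Mef2a*, *Mef2c*, *Mef2d* and *Pax7* in each of the 4 samples, with the distance from the annotated start in kb on the x axis, the gene body as a grey bar and each peak as a coloured bar, narrow ones at a minimum width. *Mef2a* and *Mef2c* have body peaks in all 4 samples at mostly different places, *Mef2d* in stimulated replicate 2 alone and *Pax7* in replicate 2 of each condition.

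The number of genes with a peak was compared between the conditions. Of the 9 genes, 2 and 4 had a body peak in the unstimulated lists and 3 and 4 in the stimulated lists. The means were 3 and 3.5 genes, a difference smaller than the spread between replicates. Of all protein-coding genes, 11.9% and 31.2% had a body peak in the unstimulated lists and 16.0% and 42.3% in the stimulated ones. The shares of the 9 genes were 22.2% and 44.4% in unstimulated and 33.3% and 44.4% in stimulated muscles. Both lists of either condition had a body peak on *Mef2a* and *Mef2c*, 2 of the 9 genes, against 12.35% of all genes in stimulated and 7.95% in unstimulated muscles. In the flanks 0 and 5 of the 9 genes had a peak in unstimulated muscles and 3 and 7 in stimulated ones, against 9.30%, 39.9%, 17.8% and 53.7% of all genes in the order of the lists. In the flanks the stimulated list held more of the 9 genes than the unstimulated list of the same replicate number both times. On gene bodies it did so in replicate 1, while both lists of replicate 2 had a peak on 4 genes. Of all genes the stimulated list held more both times, in flanks and on bodies. The lists of replicate 2 were the longer ones in both conditions. The mean difference of 2.5 genes in the flanks was 0.5 with peaks of −log10 p 2.5 or more and with lists of equal length. At a −log10 p of at least 2.5, where the lists are closer in length, 2 and 1 of the 9 genes had a body peak in unstimulated muscles and 2 and 0 in stimulated muscles. The shares of all genes were then 8.26% and 8.77% against 11.5% and 14.1%. Stimulated replicate 2, the longest list, thus had no peak of that strength on these genes or in their flanks.

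**Figure D3:**
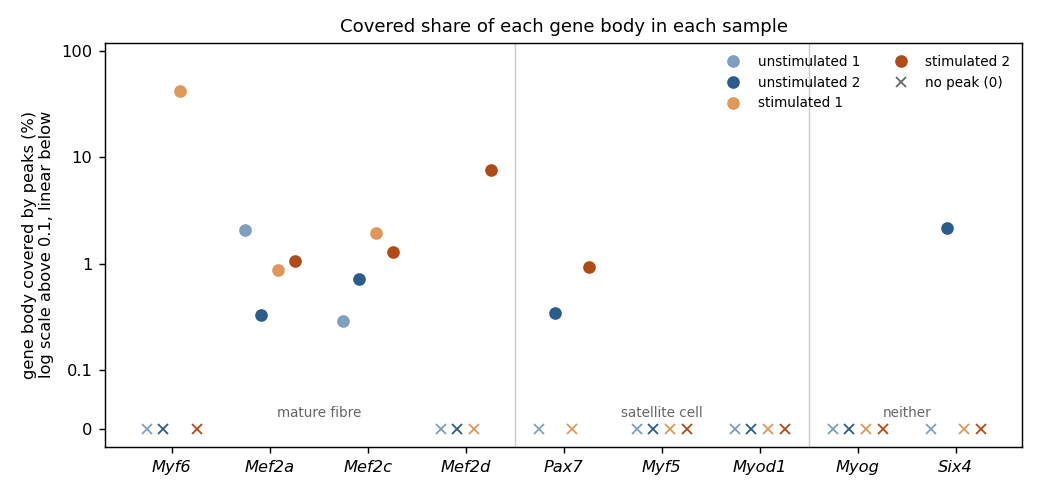
Share of each gene body covered by peaks, in percent on a log scale above 0.1 and a linear one below, with 1 point per sample and crosses for samples without a peak. *Myf6* stands out in stimulated replicate 1 with 42.4%, *Mef2c* is the gene whose 2 stimulated values lie above its 2 unstimulated values, and *Myf5*, *Myod1* and *Myog* have no peak.

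Genes of mature fibres were then set against satellite-cell genes. *Myf6*, *Mef2a*, *Mef2c* and *Mef2d* were taken as the former and *Pax7*, *Myf5* and *Myod1* as the latter, with *Myog* and *Six4* in neither. The sets are labels only: whether their genes are particular to either cell type was not tested, so this is no comparison of the cells themselves. Of the 4 fibre genes 2 and 2 had a body peak in the unstimulated lists and 3 and 3 in the stimulated ones, beside the 11.9% and 31.2%, and 16.0% and 42.3%, of all genes given above. Of the 3 satellite-cell genes 0 and 1 had one in the unstimulated lists and again 0 and 1 in the stimulated lists, each time *Pax7* in the second replicate. The mean covered share was 0.597%, 0.260%, 11.3% and 2.49% for the fibre genes and 0, 0.115%, 0 and 0.308% for the satellite-cell genes, in the order of the lists. The higher share of fibre genes was found in all 4 lists, and the value of 11.3% rests on *Myf6*. The share of genes with a peak was higher among fibre genes than among satellite-cell genes by 33.3 percentage points in unstimulated and 58.3 in stimulated muscles, but by 37.5 and 25.0 points with peaks of −log10 p 2.5 or more, so that the order of the conditions turned. Genes are not replicates and no test was made.

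Length moved with this comparison. Of 7762 protein-coding genes under 10 kb, the class of *Myf6*, *Myf5*, *Myod1* and *Myog*, 1.21%, 6.63%, 2.74% and 13.5% had a body peak in the 4 lists. From 10 to 50 kb, the class of *Mef2d* and *Six4*, the shares were 7.30%, 28.7%, 12.4% and 44.6%. For genes of 50 kb and over, the class of *Mef2a*, *Mef2c* and *Pax7*, they were 37.1%, 74.0%, 43.4% and 82.9%. A body peak in all 4 lists, as on *Mef2a* and *Mef2c*, was found on 29.6% of the genes of 100 kb and over. No peak in any list, as on *Myf5*, *Myod1* and *Myog*, was found on 78.7% of those under 10 kb. The part of length in the difference between fibre and satellite-cell genes was not tested.

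**Figure D4:**
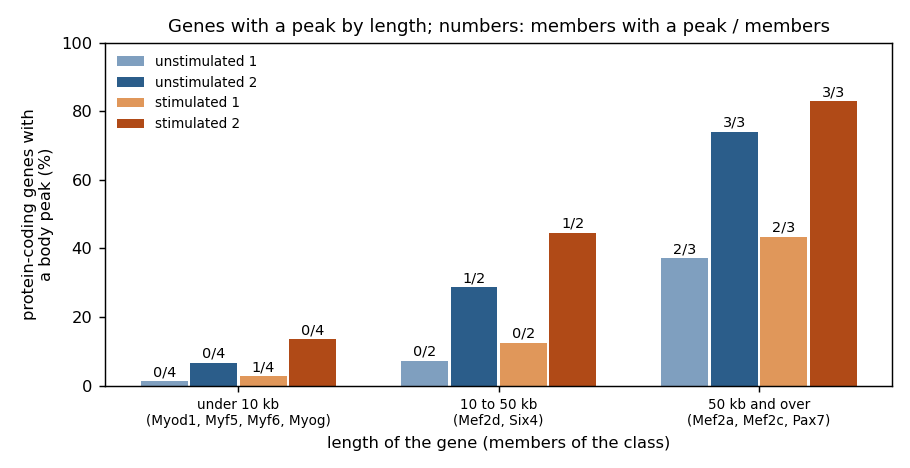
Percentage of protein-coding genes with a body peak in each sample, by the length of the gene, with the number of the 9 genes in that class that had a peak, of how many, above each bar. The share grows with length in every sample, and *Mef2a* and *Mef2c* belong to the class with the highest shares.

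The density of peaks takes length into account. Over the 9 gene bodies together, 455 kb, there were 11.0 and 17.6 peaks per Mb in the unstimulated lists and 15.4 and 24.2 in the stimulated lists. Over the bodies of all protein-coding genes on autosomes there were 3.99 and 14.6, and 5.05 and 22.6, peaks per Mb. The 9 genes were thus above the rest in both lists of replicate 1, with 5 and 7 peaks, all but the *Myf6* peak on *Mef2a* or *Mef2c*, and closer to it in those of replicate 2. This was not tested.

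The place of a peak within its list was taken from its fold enrichment. The median place of the peaks at the 9 genes was 15.04% from the top in unstimulated replicate 1, with 5 peaks, and 51.4% in unstimulated replicate 2, with 15. It was 73.4% in stimulated replicate 1, with 9 peaks, and 70.9% in stimulated replicate 2, with 21. These places are descriptions of each list and were not compared between the conditions, since the lists differ in length and many peaks share a fold: the median in stimulated replicate 1 lies in a tie of 705 peaks. The 2 best places, those at *Myf6* and upstream of *Six4*, were in stimulated replicate 1. The peaks of stimulated replicate 2 lay between 18.7% and 99.6% from the top. No peak overlapped any of 10 promoter windows of 300 bases that RefSeq gives for 7 of the 9 genes. The share of such windows with a peak over all genes is not given here, so this is no result about the 9 genes. The peak nearest to a transcript start was that on *Myf6*, at 554 bp, followed by that on *Six4*, at 580 bp.

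**Figure D5:**
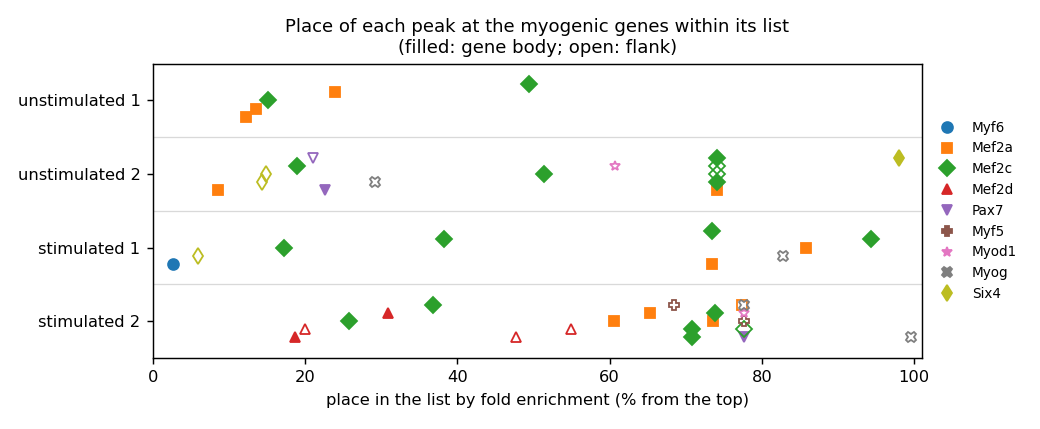
Place of each of the 50 peaks within its own list by fold enrichment, in percent from the top of the list on the x axis, with filled symbols for gene bodies, open symbols for flanks, heights within a row only to keep symbols apart, and flank peaks common to *Myf5* and *Myf6* drawn as *Myf5*. The 5 peaks of unstimulated replicate 1 lie within the first 49.4% of their list, and those of stimulated replicate 2 spread from 18.7% to 99.6%.

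The factors that work with these proteins were described from a list of 44 partner genes. Of these, 9 and 11 had a body peak in the unstimulated lists and 15 and 31 in the stimulated lists, beside 11.9% and 31.2%, and 16.0% and 42.3%, of all genes. On 15 of them a peak was found in both stimulated lists, on 6 in both unstimulated lists, and on 13 in no list. The shares of all genes were 12.35% for both stimulated and 7.95% for both unstimulated lists. No list had a peak on 78.7% of genes under 10 kb, 36.0% of those of 10 to 50 kb and 5.72% of those of 50 kb and over. The median length of the partner genes was 30.7 kb. Their median covered share was 0 in 3 lists and 2.26% in stimulated replicate 2, while that of all genes was 0 in each list. All 3 genes of E proteins, the partners of the MyoD family in binding E boxes, had a peak in both stimulated lists. *Tcf3* was covered over 4.29% and 2.93% in stimulated and 0 in unstimulated muscles, and *Tcf4* and *Tcf12*, of 346 and 269 kb, each had a peak in 1 unstimulated list as well. Of all genes of 100 kb and over, the class of the latter pair, 57.7% and 90.2% had a peak in the stimulated lists. Of the 8 inhibitors of basic helix-loop-helix factors, *Twist2* had a peak in both stimulated lists, *Bhlhe41* in stimulated replicate 2, and *Id1*, *Id2*, *Id3*, *Id4*, *Msc* and *Twist1* in no list. *Carm1*, an arginine methyltransferase that acts as a coactivator of Mef2, and *Nfix*, a factor that drives the switch from embryonic to fetal myogenesis, also had peaks in both stimulated lists and neither unstimulated list. The covered share of *Carm1* was 1.78% and 4.72%, and that of *Nfix* 0.948% and 4.78%. Both stimulated values above both unstimulated ones, as in *Tcf3*, *Twist2*, *Carm1* and *Nfix*, were found on 4.97% of all genes. Among genes of 100 kb and over, the class of *Nfix*, the share was 11.8%.

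Other partners had peaks in both conditions. Among the class IIa histone deacetylases, *Hdac9*, of 870 kb, had a peak in all 4 lists, and *Hdac4* in all but stimulated replicate 1. Of the 4 Eya coactivators, the cofactors of *Six4* and its relatives, *Eya3* and *Eya4* had a peak in all 4 lists, *Eya1* in all but stimulated replicate 1 and *Eya2* in all but unstimulated replicate 1. *Rbpj*, the DNA-binding factor of Notch signalling, had one in all 4 lists. *Tead1*, *Tead4*, *Ep300* and *Kdm1a* had one in both stimulated lists and in 1 unstimulated list. Among 5 relatives of *Mef2c*, *Pax7* and *Six4*, *Pax3* had a peak in replicate 2 of each condition, as *Pax7* did. By the summed absolute difference in covered share over the 4 lists, the partners nearest to *Mef2c* were *Eya1*, *Eya4* and *Hdac9*, at 2.38, 2.55 and 2.65 percentage points. Those nearest to *Mef2a* were *Tcf12*, *Ep300* and *Twist2*, at 2.38, 2.89 and 3.26 points. *Hdac9*, *Kat2b* and *Eya4* were nearest to *Pax7*, at 0.959, 1.06 and 1.09 points. These sums do not show a like pattern of peaks. *Pax7* was covered over 0.345% and 0.923% in the lists of replicate 2 only, so a gene without any peak would lie nearly as close. *Twist2* had no peak in the unstimulated lists, where *Mef2a* was covered over 2.095% and 0.327%.

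For comparison, 18 genes of transcription factors of other lineages, with a median length of 6.32 kb, were taken. Of these, 1 and 7 had a body peak in the unstimulated lists and 3 and 7 in the stimulated lists. The shares of all genes were 11.9% and 31.2% in the unstimulated and 16.0% and 42.3% in the stimulated lists. *Gata4*, a factor of heart and gut, had one in all but unstimulated replicate 1, and *Runx2*, the factor of bone, in all 4. *Gata4* is 72.8 kb and *Runx2* 319 kb long, and 29.6% of genes of 100 kb and over had a peak in all 4 lists. The tissue was checked against marker genes of the cell types in muscle. Of 8 genes of the contracting fibre, 3 and 6 had a body peak in the unstimulated lists and 5 and 6 in the stimulated lists. These counts stand beside the same shares of all genes. *Myh4*, the heavy chain of the fastest myosin, was covered over 5.43% and 43.1% in unstimulated and 32.3% and 61.1% in stimulated muscles. *Acta1*, the skeletal actin, was covered over 0 and 90.0% in unstimulated and 53.6% and 60.8% in stimulated muscles, and its groups overlap. *Ckm*, the muscle creatine kinase, was covered over 0 and 14.4% in unstimulated and 1.53% and 0 in stimulated muscles. *Tnnt3* and *Atp2a1* had a peak in all 4 lists, and *Mylpf* in none. In each list the share of *Myh4* was above that of every one of the 9 transcription factor genes, except for *Myf6* in stimulated replicate 1.

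Markers of other cells had peaks as well. Of 8 satellite-cell markers, 2 and 2 had a body peak in unstimulated and 2 and 4 in stimulated muscles. *Sdc4*, which satellite cells share with other cells, was covered over 11.3% and 4.31% in the stimulated lists and had no peak in the unstimulated lists. An order like that of *Sdc4*, with both stimulated values above both unstimulated ones, was found on 4.97% of all genes. *Megf10* had a peak in all but stimulated replicate 1, and *Myf5* and *Heyl* were at 0 throughout. Of 6 endothelial markers 0 and 3 had one in unstimulated and 1 and 5 in stimulated muscles, with *Tek* in all but unstimulated replicate 1 and *Sox17* at 0. Of 6 fibroblast markers 0 and 2 had one in unstimulated and 1 and 1 in stimulated muscles, and of 6 immune markers 0 and 1 against 1 and 4, with *Itgam* in all but unstimulated replicate 1. Of 4 Schwann cell markers 0 and 0 had one against 0 and 2. Beside these counts, 11.9% and 31.2% of all genes had a body peak in the unstimulated lists and 16.0% and 42.3% in the stimulated lists. The median covered share of the satellite-cell and immune markers was 0 in every list but that of stimulated replicate 2, with 0.140% and 0.304%, and that of the fibroblast markers was 0 in all 4. For the endothelial markers it was 0.0995% in unstimulated replicate 2 and 0.556% in stimulated replicate 2, and for the Schwann cell markers 1.88% in the latter, with 0 in the other lists. The part of these cells in the peaks of the 9 genes was not tested.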

How the data were processed

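ChIP-seq for H3S10ph in 4 samples was used. According to the methods, the authors mapped reads to mm10, discarded multi-mapping reads, thinned the replicates to equal read numbers and called broad peaks for each sample with input DNA as control. The submitters' processing notes name MACS2 2.1.1 and BWA. Each deposited peak has a fold enrichment (the ratio of signal to local background) and a p-value and q-value, both as −log10. Folds and p-values were used only within a list. They hold no counts, so no counting interval can be given.

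Peaks were intersected with GENCODE M21 genes, with at least 1 bp in common, using Python 3.11.15 (numpy 2.4.6, pandas 2.3.3, scipy 1.17.1, matplotlib 3.10.9), tested on simulated data. Where gene names were repeated the first entry was kept. Conditions were compared per gene by a two-sided exact permutation test on covered share. Named were all 9 genes, the genes a flank peak overlaps, partner and marker genes with a body peak in both lists of a condition, and the 3 partners nearest in covered share to a gene with peaks in at least 2 lists; the other partner and marker genes were named after their values were seen. The members and gene lists were chosen with earlier results of these data known. Alternatives were thresholds of 2.5 and 3 on −log10 p, lists of equal length, 50% of the peak within, other flanks, 1 kb before the start, ranks by −log10 p, each replicate left out and the replicate number as a block. No source says whether samples came from separate experiments beyond separate pools.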

Additional observations from a re-analysis of the deposited data

How the results depend on the processing

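With 2 samples per condition the exact permutation test cannot go below 0.333, and weaker peaks than those listed cannot be seen, so the directions given are descriptions. The stimulated minus unstimulated difference in the number of genes with a body peak moved less than the spread between replicates under every alternative, but its sign did not hold: it was 0.5 genes as reported, −0.5 with peaks of −log10 p 2.5 or more and with lists of equal length, 1 with those of 3 or more, and from −0.5 to 1.5 when 1 replicate was left out. The mean covered share of the 9 genes was 2.79 percentage points higher in stimulated muscles, with an SD of 2.70, and from 0.878 points without stimulated replicate 1, which holds the *Myf6* peak, to 4.70 without stimulated replicate 2. The median over the 9 genes was 0 in every list, and their mean was 0.265%, 0.394%, 5.03% and 1.21% in the order of the lists, beside a mean over all genes of 0.166%, 0.739%, 0.329% and 1.65%. Of their summed length 0.757%, 0.496%, 1.15% and 1.49% was covered. The difference in genes with a flank peak was 2.5, and from 0 to 5 when 1 replicate was left out. The difference in the share of genes with a peak between fibre and satellite-cell genes, 45.8 points over the 4 lists, was 12.5 points with peaks of −log10 p 3 or more, which leave *Myf6* and *Mef2c* in stimulated replicate 1 and no satellite-cell gene. The covered share of *Mef2a* differed by −0.245 points, stimulated minus unstimulated, and ranged from −1.13 to 0.639 points when 1 replicate was left out, with the sign turned without unstimulated replicate 1, and it was −1.13 with peaks of −log10 p 2.5 or more and −0.970 with lists of equal length. That of *Pax7* was 0.289 points higher, −0.173 points with lists of equal length, and from −0.173 to 0.750 points when 1 replicate was left out, with the sign turned without stimulated replicate 2. With the replicate number as a block the difference for *Mef2c* was again 1.12 points, and the exact sign-flip test over 2 pairs gave a p of 0.5, its smallest. The deviations of same-numbered samples from their group means had a correlation of 0.0356 over all genes. This cannot decide whether same-numbered pools are pairs, since 97.8% of all regions were found in 1 list only. Both conditions come from the same mice, but no source says which pools match. The main test therefore took the samples as unpaired, which remains a limit. Ranked by −log10 p, the median places in the lists were 15.1%, 52.2%, 70.9% and 69.5% from the top.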
